A study of Mus musculus with 9 samples.

Results

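The 6 genes described here, D2hgdh, Idh1, Idh2, Mdh1, Mdh2 and Phgdh, encode enzymes that make, can make or remove 2-hydroxyglutarate (2HG). They were taken by symbol from the 55011 genes of the deposited count table, and all 6 were present and passed the filter on low counts. RNA was sequenced from naive CD8 T cells of the spleen of wild-type (WT) mice, cultured for 6 h on plate-bound antibodies to CD3 and CD28 (4 µg/mL). The groups were cells given 20 mM D-2HG at the start of stimulation, cells given 20 mM L-2HG at the start, and untreated cells (control), with 3 libraries in each group and 9 in all. Every group received the antibodies, so unstimulated cells were not part of the comparison. The labels give neither the age nor the sex of the mice and do not tell whether the replicates are different mice or different cultures. The p-values below therefore measure the spread between these libraries, which may be technical.

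2HG is 2-oxoglutarate, an intermediate of the citric acid cycle, with its keto group reduced to a hydroxyl group, and it exists as the mirror-image forms D-2HG and L-2HG. Malate dehydrogenases and lactate dehydrogenases act mainly on oxaloacetate and pyruvate and can reduce 2-oxoglutarate to L-2HG as a side reaction. Phosphoglycerate dehydrogenase, which opens the serine synthesis pathway, can form D-2HG in the same manner, as shown for the human enzyme. Isocitrate dehydrogenases 1 and 2 convert isocitrate to 2-oxoglutarate with formation of NADPH, and mutant forms found in human gliomas and leukaemias turn 2-oxoglutarate into D-2HG. D-2-hydroxyglutarate dehydrogenase oxidises D-2HG back to 2-oxoglutarate in mitochondria.

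Gene counts totalled between 562627 (L-2HG replicate 2) and 5731885 (control replicate 3) per library. All 8 CD8 T cell markers passed the filter, with a summed level of 3152 to 3530 CPM (gene counts over the library total, scaled by TMM) with D-2HG, 2661 to 3987 CPM with L-2HG and 3712 to 6178 CPM in control cells. With D-2HG 5 of the 8 were lower in edgeR's test (Cd3e, Cd3g, Cd8b1, Trac and Trbc2), and with L-2HG 2 of the 8 (Trac and Trbc2). At the same threshold (adjusted p under 0.05), 10.5% of all tested genes were lower with D-2HG and 8.30% with L-2HG. The 6 B cell markers summed to 134 to 135 CPM with D-2HG, 136 to 197 CPM with L-2HG and 175 to 318 CPM in control cells. Ighm, a B cell marker, was lower with both compounds in edgeR's test. Dendritic cell markers were low, with ranges above those of control cells, at summed levels of 10.7 to 19.9 CPM with D-2HG, 14.6 to 22.8 CPM with L-2HG and 5.21 to 8.72 CPM in control cells, and Zbtb46 of that list was higher with L-2HG. CD4 T cell markers summed to 13.5 to 16.5 CPM with D-2HG, 11.8 to 17.2 CPM with L-2HG and 9.69 to 11.9 CPM in control cells. The lists of macrophages and monocytes, NK cells and erythroid cells stayed at or under 8.56 CPM in every library. Of the 10 RNA quality genes, Neat1, a nuclear RNA, was higher with both compounds and 5 genes encoded by mitochondria were lower with both. Cd14 had no count with L-2HG, and neither Cd14 nor Itgam had a count in control cells. The share of counts in Gm10800 and Gm10801, predicted genes of satellite-like repeat sequence, was 6.83%, 3.79% and 17.0% with D-2HG, 6.71%, 24.4% and 7.98% with L-2HG, and 1.43%, 5.35% and 0.910% in control replicates 1, 2 and 3. Transcripts encoded by mitochondria took 0.992% to 1.87% of counts with D-2HG, 1.19% to 1.83% with L-2HG and 2.23% to 3.06% in control cells. The part of these markers and shares in the results below was not tested, except as stated for the satellite share. Control replicate 2 lay among the treated libraries in its satellite share. In the fit over all genes, 52.9% of the genes that passed with D-2HG were higher than in control cells (70.0% with scaling to library totals and 43.8% with DESeq2 size factors). With L-2HG this share was 53.1% (77.7% and 36.2%).

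Phgdh, Mdh1 and Mdh2 were abundant genes of these cells, Idh2 was of middle rank, and Idh1 and D2hgdh were near the lower end. Per kilobase of exon, Mdh2 averaged 118 ± 14.2 CPM per kb with D-2HG, 112 ± 20.2 CPM per kb with L-2HG and 201 ± 59.1 CPM per kb in control cells (SD, n = 3 each, here and below). Phgdh followed with means of 71.3 ± 4.58, 86.8 ± 12.3 and 141 ± 25.6 CPM per kb in D-2HG, L-2HG and control cells. Mdh1 averaged 46.8 ± 8.30, 51.1 ± 15.4 and 85.4 ± 24.9 CPM per kb in the same groups.

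Idh2 had lower levels of 12.2 ± 2.12 CPM per kb with D-2HG, 14.9 ± 1.03 CPM per kb with L-2HG and 16.6 ± 2.07 CPM per kb in control cells. Idh1 averaged 1.00 ± 0.569, 1.06 ± 0.884 and 1.24 ± 0.596 CPM per kb in D-2HG, L-2HG and control cells, and D2hgdh 0.586 ± 0.144, 0.996 ± 0.362 and 1.20 ± 0.627 CPM per kb. The order of the 6 means was the same in each group. The ranges of Idh1 and D2hgdh overlapped in all 3 groups, and those of Mdh2 and Phgdh overlapped in control cells and with L-2HG but not with D-2HG. Among the 10104 tested genes with an exon length, control levels per kb placed Mdh2 at rank 308, Phgdh at 468, Mdh1 at 803, Idh2 at 2963, Idh1 at 8571 and D2hgdh at 8629.

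With D-2HG, Phgdh, Mdh1 and Mdh2 were lower than in control cells, and with L-2HG Phgdh and Mdh2 were. A gene passed at an adjusted p under 0.05 in edgeR's quasi-likelihood test, adjusted over all 10235 tested genes. With D-2HG, 3 of the 6 genes passed and all 3 were lower, where 10.5% of all tested genes passed as lower and 22.3% passed in either direction. With L-2HG, 2 of 6 passed and both were lower, where 8.30% of all tested genes passed as lower and 17.7% in either direction. The median log2 fold change of the 6 genes was −0.82 with D-2HG and −0.51 with L-2HG, beside medians of 0.036 and 0.052 over all tested genes. In that fit all 6 estimates were below 0 in both comparisons, as were 48.3% and 47.6% of all estimates, but the signs of Idh1 with each compound and of D2hgdh, Idh2 and Mdh1 with L-2HG turned under at least 1 alternative. In bulk RNA, less RNA per cell and fewer cells of a kind that expresses a gene cannot be told apart.

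**Figure D1:**
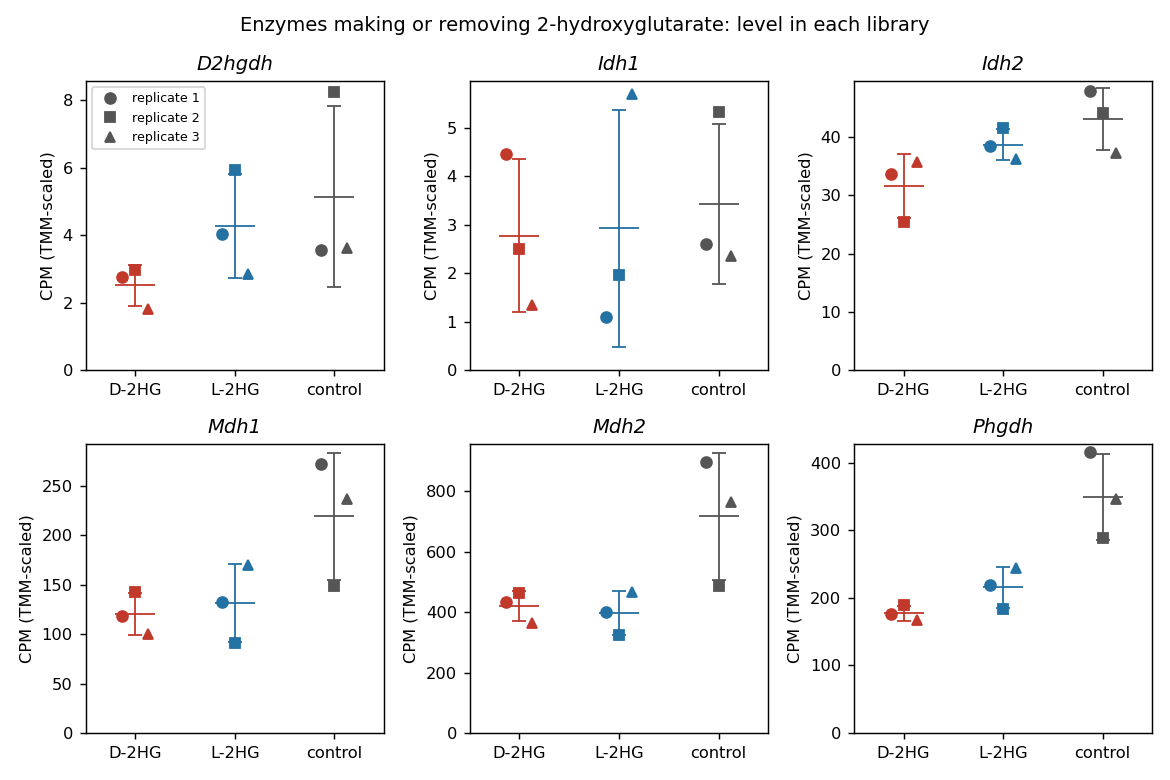
Level of each enzyme gene in TMM-scaled CPM (vertical axes, from 0) in D-2HG, L-2HG and control libraries, with marker shapes for replicate numbers, horizontal bars at group means and error bars of 1 SD (n = 3). The treated libraries of Phgdh lie below all 3 controls, while for Mdh1 and Mdh2 control replicate 2 lies close to or among them.

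Phgdh encodes phosphoglycerate dehydrogenase, which commits a glycolytic intermediate to serine synthesis (ENSMUSG00000053398, mm10 chr3:98313170-98339990, minus strand). It had 176, 189 and 167 CPM with D-2HG, 219, 184 and 245 CPM with L-2HG, and 416, 289 and 346 CPM in control cells. All 6 treated libraries lay below all 3 controls. Its mean was 177 ± 11.4 CPM with D-2HG, 216 ± 30.6 CPM with L-2HG and 350.4 ± 63.7 CPM in control cells. The log2 fold change was −0.98 ± 0.19 (SE) with D-2HG (95% interval −1.39 to −0.58, edgeR adjusted p = 0.00395), or 0.506 of the control level. With L-2HG it was −0.69 (95% interval −1.10 to −0.28, edgeR adjusted p = 0.0261), or 0.620 of the control level. Phgdh has 22 annotated copies of at least 90% identity over at least 200 bases, which held 135 counts in all beside 7183 for Phgdh, and how reads shared with them were counted is not given in the sources used here.

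Mdh2 encodes the mitochondrial malate dehydrogenase of the citric acid cycle (ENSMUSG00000019179, mm10 chr5:135778480-135790398, plus strand). Its level was 432, 464 and 365 CPM with D-2HG, 401, 324 and 468 CPM with L-2HG, and 899, 487 and 766 CPM in control cells. No treated library reached the lowest control, but control replicate 2 stood nearer to the treated libraries than to the other controls. The means were 421 ± 50.5 CPM with D-2HG, 397 ± 72.0 CPM with L-2HG and 717 ± 211 CPM in control cells. Mdh2 changed by −0.77 ± 0.22 (log2, SE) with D-2HG (95% interval −1.24 to −0.30, edgeR adjusted p = 0.0227), or 0.586 of control. With L-2HG it changed by −0.84 (95% interval −1.32 to −0.37, edgeR adjusted p = 0.0212), or 0.557 of control.

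Mdh1 encodes the cytosolic malate dehydrogenase, which works in the malate-aspartate shuttle (ENSMUSG00000020321, mm10 chr11:21556787-21572367, minus strand). It had 118, 142 and 99.8 CPM with D-2HG, 133, 90.8 and 169.8 CPM with L-2HG, and 273, 148 and 237 CPM in control cells. The D-2HG libraries lay below all controls, whereas L-2HG replicate 3 exceeded control replicate 2, so that the L-2HG and control ranges overlapped. Its means were 120.0 ± 21.3, 131 ± 39.5 and 219 ± 64.0 CPM in D-2HG, L-2HG and control cells. Mdh1 changed by −0.87 ± 0.24 (log2, SE) with D-2HG (95% interval −1.38 to −0.36, edgeR adjusted p = 0.0196), or 0.547 of control. The estimate with L-2HG, −0.71 (95% interval −1.23 to −0.20), missed the threshold at an edgeR adjusted p of 0.0509. Of 20 alternatives it passed in 7, among them DESeq2 size factors (0.0325), no count filter (0.0106), DESeq2's Wald test (0.0215) and limma-voom (0.000865). In 12 it did not pass, among them library totals (edgeR adjusted p = 0.120), a fit of only the 2 groups (0.111) and a subtracted background (0.127). In the remaining 1, with the satellite share as a covariate, its sign turned. Exons of Mdh1 share 52 bases with those of Wdpcp on the opposite strand, and Wdpcp held 28 counts in all.

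The proportion of the malate dehydrogenases was also computed within each library. The ratio of Mdh2 to Mdh1 counts was 3.66, 3.26 and 3.66 with D-2HG, 3.01, 3.57 and 2.75 with L-2HG, and 3.30, 3.28 and 3.24 in control cells. The ranges overlapped in each comparison, and the L-2HG libraries were spread more widely (SD 0.414) than the controls (SD 0.0297). The mean log2 ratio differed by 0.11 between D-2HG and control cells (exact two-sided permutation p = 0.3), by −0.081 between L-2HG and control cells (exact p = 0.6) and by 0.19 between D-2HG and L-2HG (exact p = 0.2), where 3 against 3 libraries cannot give a p below 0.1, so this test could not have passed at 0.05.

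Most of these calls were lost when 1 of some libraries was left out, and none passed with the satellite share in the model. Phgdh with D-2HG passed whichever library was left out, with edgeR adjusted p up to 0.0306. Mdh1 with D-2HG did not pass without control replicate 1 or 3 or D-2HG replicate 1 or 3 (up to 0.107), and Mdh2 with D-2HG did not pass without control replicate 1 or 3 or any D-2HG replicate (up to 0.122). With L-2HG, Mdh2 and Phgdh each lost the call without control replicate 1 or 3 or L-2HG replicate 1 or 2 (up to 0.0979 and 0.106). Without control replicate 2, all 3 genes passed in both comparisons, with log2 fold changes with D-2HG of −1.12 for Phgdh, −1.10 for Mdh1 and −1.001 for Mdh2, and with L-2HG of −0.84, −0.94 and −1.09 for the same genes. Mdh1 with L-2HG also passed without L-2HG replicate 3 (edgeR adjusted p = 0.0203). With scaling to library totals, neither Mdh2 with D-2HG (edgeR adjusted p = 0.0582) nor Phgdh with L-2HG (0.0722) passed, and after thinning to the smallest library neither Mdh1 with D-2HG (0.0583) nor Phgdh with L-2HG (0.155) did.

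**Figure D2:**
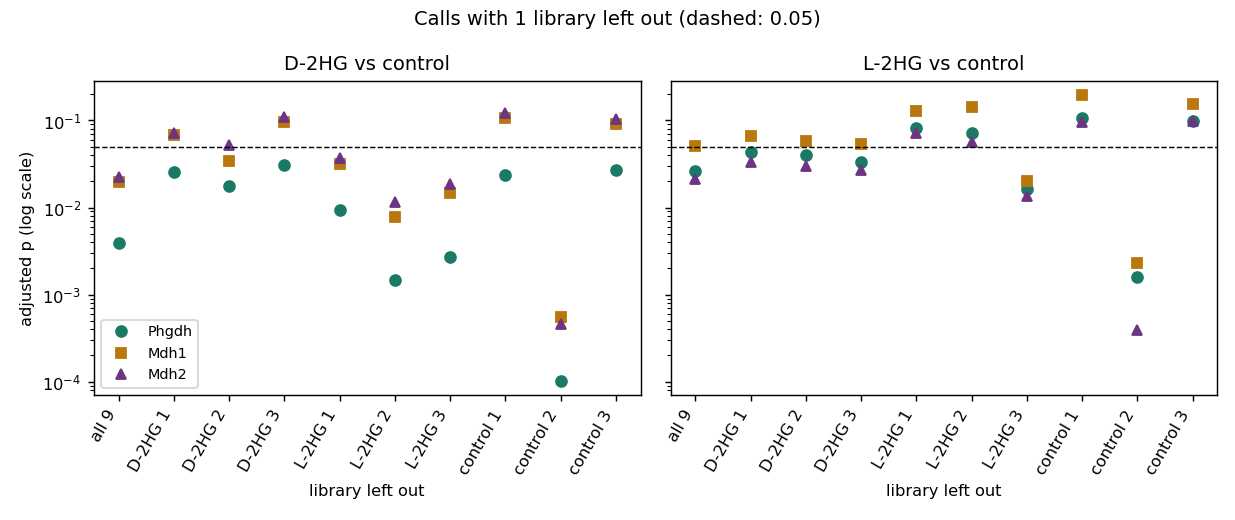
Adjusted p of Phgdh, Mdh1 and Mdh2 (vertical axis, log scale) in edgeR's test with all 9 libraries and with each library left out in turn, for D-2HG against control (left) and L-2HG against control (right), with a dashed line at 0.05. Phgdh with D-2HG stays under the line throughout, and leaving out control replicate 2 gives the lowest values in each panel.

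When the log2 satellite share was added to the model as a covariate, an alternative chosen after seeing the data, none of the 6 genes passed in either comparison with control. The fitted change with D-2HG became −0.71 for Phgdh (edgeR adjusted p = 0.130), −0.25 for Mdh1 (0.716) and −0.26 for Mdh2 (0.689). With L-2HG it became −0.36 for Phgdh (0.734), 0.033 for Mdh1 and −0.22 for Mdh2 (0.858). In that model 96 genes passed with D-2HG and 8 with L-2HG, against 2278 and 1812 without the covariate.

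The libraries with satellite shares between 3.79% and 7.98% came from all 3 groups. Among them Mdh2 was at 432 and 464 CPM with D-2HG, 401 and 468 CPM with L-2HG, and 487 CPM in control replicate 2. Phgdh was at 176 and 189 CPM with D-2HG, 219 and 245 CPM with L-2HG, and 289 CPM in control replicate 2. Mdh1 was at 118 and 142 CPM with D-2HG, 133 and 169.8 CPM with L-2HG, and 148 CPM in control replicate 2. In this subset, which holds 1 control library, that library was the highest for Mdh2 and Phgdh and lay among the treated libraries for Mdh1. For Mdh2 the exact 95% Poisson intervals of control replicate 2 (457 to 518 CPM) and L-2HG replicate 3 (439 to 498 CPM) overlapped. The satellite share and the compounds cannot be fully told apart in 9 libraries, and the part of the satellite share in these changes was not tested beyond this covariate.

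**Figure D3:**
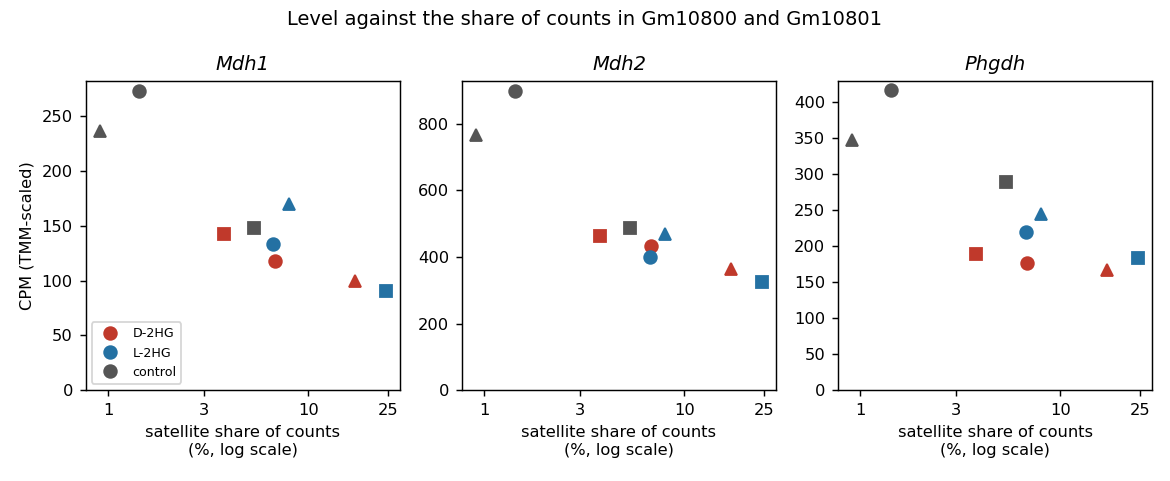
Level in TMM-scaled CPM (vertical axes, from 0) against the percent of counts in Gm10800 and Gm10801 (horizontal axes, log scale) for Mdh1, Mdh2 and Phgdh in each of the 9 libraries, coloured by group and shaped by replicate number as circle, square and triangle for 1, 2 and 3. Control replicates 1 and 3 stand apart at 1.43% and 0.910%, and control replicate 2, at 5.35%, lies among the treated libraries in share.

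For the 3 genes that passed, the sequences before the RefSeq transcription starts are shown. The genes were lower together, and the text below refers to motifs in these sequences. Each is the 250 bases before the transcription start in RefSeq (GRCm38.p6), written 5′ to 3′ on the gene's strand, and capitals mark matches on either strand to TGANNNNGC, the core of the antioxidant response element, and to GGGCGG, the GC box. They lie at chr3:98339970-98340219 (minus strand) for Phgdh, chr11:21571935-21572184 (minus strand) for Mdh1 and chr5:135778399-135778648 (plus strand) for Mdh2. The gene positions given above are from GENCODE, which places these starts differently from RefSeq. By those positions the Mdh1 window lies wholly inside Mdh1, and most of the Mdh2 window lies inside Mdh2.
Phgdh: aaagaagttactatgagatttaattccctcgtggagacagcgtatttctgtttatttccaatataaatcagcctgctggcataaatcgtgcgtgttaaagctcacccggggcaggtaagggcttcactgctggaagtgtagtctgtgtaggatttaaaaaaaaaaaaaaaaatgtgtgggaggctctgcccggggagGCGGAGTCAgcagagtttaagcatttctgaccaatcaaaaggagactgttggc
Mdh1: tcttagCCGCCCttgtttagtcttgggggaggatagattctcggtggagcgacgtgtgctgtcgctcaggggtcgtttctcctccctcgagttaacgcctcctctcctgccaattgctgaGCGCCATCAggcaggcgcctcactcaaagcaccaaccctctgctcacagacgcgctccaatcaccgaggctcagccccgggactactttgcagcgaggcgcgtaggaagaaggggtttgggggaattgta
Mdh2: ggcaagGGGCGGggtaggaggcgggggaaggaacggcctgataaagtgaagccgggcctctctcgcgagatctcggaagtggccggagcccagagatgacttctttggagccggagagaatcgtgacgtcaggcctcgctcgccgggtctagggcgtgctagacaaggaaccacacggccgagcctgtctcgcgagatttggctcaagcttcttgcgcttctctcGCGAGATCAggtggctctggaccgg

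Each of the 3 windows held 1 match to TGANNNNGC, starting at −53 in Phgdh, −130 in Mdh1 and −25 in Mdh2, counted from the RefSeq transcription start. By the GENCODE positions, the matches in Mdh1 and Mdh2 lie inside the genes. D2hgdh (−74) and Idh2 (−142), which did not pass, also held 1 match each, and Idh1 held none. Such a match was present in 35.2% of 32851 windows of the same length before mouse transcription starts. GGGCGG, read on either strand and present in 32.7% of windows, had 1 match at −244 in Mdh1 and 1 at −244 in Mdh2 and none in Phgdh, and it also occurred in the windows of Idh1, Idh2 and D2hgdh. Neither CACGTG, the E-box (6.02% of windows), nor TGATGNAA, the core of the C/EBP-ATF response element (3.45%), occurred in the windows of any of the 6 genes. GC content was 44.0% for Phgdh, 59.2% for Mdh1 and 63.2% for Mdh2. These are letter matches only, and no binding was measured.

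Idh2 encodes the mitochondrial NADP-dependent isocitrate dehydrogenase (ENSMUSG00000030541, mm10 chr7:80094846-80115392, minus strand). Its level was 33.7, 25.3 and 35.7 CPM with D-2HG, 38.4, 41.5 and 36.2 CPM with L-2HG, and 47.8, 44.1 and 37.3 CPM in control cells. The D-2HG libraries lay below both other groups, by a small margin, and the L-2HG range overlapped that of control cells. The means were 31.6 ± 5.48, 38.7 ± 2.66 and 43.1 ± 5.35 CPM in D-2HG, L-2HG and control cells. Neither difference from control passed, with a log2 fold change of −0.46 with D-2HG (95% interval −0.91 to 0.00, edgeR adjusted p = 0.132) and −0.17 with L-2HG (95% interval −0.65 to 0.31, edgeR adjusted p = 0.616).

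Idh1 encodes the cytosolic and peroxisomal counterpart of Idh2 (ENSMUSG00000025950, mm10 chr1:65158616-65186500, minus strand). It was so low that its libraries held 13, 11 and 3 counts with D-2HG, 3, 1 and 12 counts with L-2HG, and 11, 11 and 13 counts in control cells. As CPM these were 4.47, 2.51 and 1.35 with D-2HG, 1.10, 1.97 and 5.71 with L-2HG, and 2.60, 5.33 and 2.35 in control cells, and the 3 ranges overlapped. The single count of L-2HG replicate 2 corresponds to an exact 95% Poisson interval of 0.050 to 10.9995 CPM, which covers counting error only. The log2 fold change was −0.17 with D-2HG (95% interval −1.48 to 1.13, edgeR adjusted p = 0.857) and −0.061 with L-2HG (95% interval −1.51 to 1.39, edgeR adjusted p = 0.957). These wide intervals leave the size and direction of any difference undetermined.

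D2hgdh encodes the mitochondrial enzyme that removes D-2HG (ENSMUSG00000073609, mm10 chr1:93824909-93852348, plus strand). It had 8, 13 and 4 counts with D-2HG, 11, 3 and 6 counts with L-2HG, and 15, 17 and 20 counts in control cells, 97 in all. Scaled to CPM this was 2.75, 2.97 and 1.81 with D-2HG, 4.02, 5.92 and 2.85 with L-2HG, and 3.55, 8.24 and 3.62 in control cells. All D-2HG libraries lay below all controls, and control replicate 2 was above the others. The log2 fold change with D-2HG, −0.89 ± 0.52 (SE, 95% interval −1.99 to 0.20, edgeR adjusted p = 0.210), did not pass, nor did that with L-2HG, −0.33 (95% interval −1.49 to 0.84, edgeR adjusted p = 0.697). Without control replicate 2 the D-2HG estimate was −0.49.

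A background was read from 1395 sensory receptor genes (olfactory, vomeronasal and trace amine-associated receptors), which have no known role in T cells. These remained of 1469 such genes after the 5% with the most counts per base of exon were left out. Their summed level was 677 to 1032 CPM with D-2HG, 1132 to 2945 CPM with L-2HG and 185 to 739 CPM in control cells. Per base of exon, this background equalled 4.36% to 83.0% of the counts of D2hgdh over the 9 libraries and 4.34% to 51.4% of those of Idh1. It was at most 3.96% for Idh2 and at most 0.837% for Mdh1, Mdh2 and Phgdh. With the background subtracted, Phgdh, Mdh1 and Mdh2 still passed with D-2HG (edgeR adjusted p of 0.00804, 0.0364 and 0.0401), while with L-2HG neither Mdh2 (0.0560) nor Phgdh (0.0697) passed. D2hgdh fell below the filter on low counts after this subtraction and was not tested there.

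CPM ranges were also compared between groups without a model. With D-2HG, 5 of the 6 genes lay wholly below control cells, and 19.3% of all tested genes did so. Of these 5, D2hgdh and Idh2 did not pass in edgeR's test, and D2hgdh held only 4 to 20 counts per library in these groups. With L-2HG, Mdh2 and Phgdh did so (2 of 6), beside 14.8% of all tested genes. Idh1 had overlapping ranges in both comparisons.

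**Figure D4:**
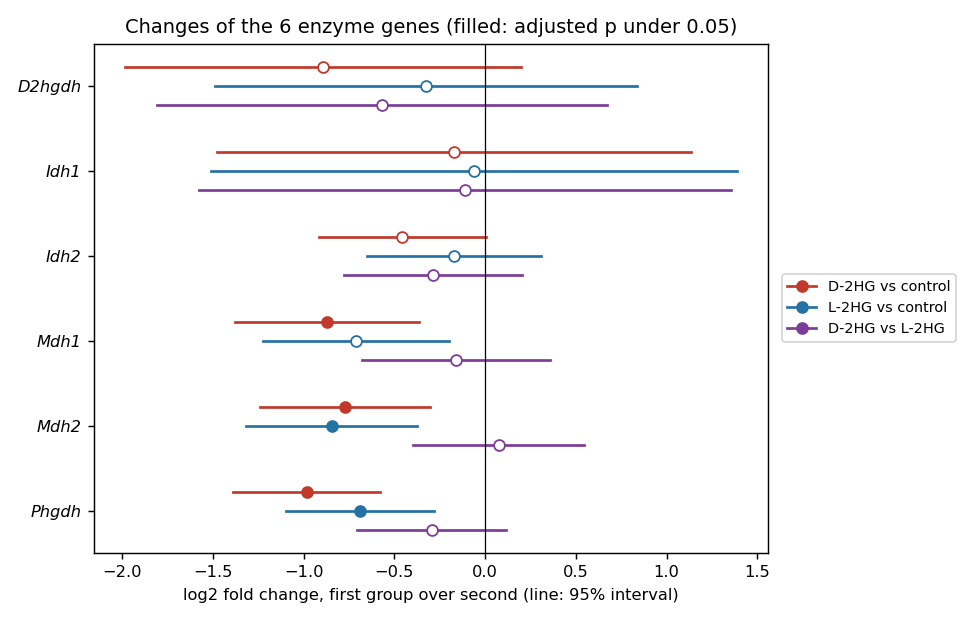
Log2 fold change of each enzyme gene (horizontal axis, points with 95% intervals) for each compound over control and for D-2HG over L-2HG, with filled points for adjusted p under 0.05. Filled points are Mdh1, Mdh2 and Phgdh with D-2HG and Mdh2 and Phgdh with L-2HG, all below 0, and the intervals of D2hgdh and Idh1 are the widest.

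D-2HG and L-2HG, mirror images at the hydroxyl-bearing carbon, were compared directly at 20 mM and 6 h. In edgeR's test 0 of the 6 genes passed between them, where 0.303% of all tested genes passed. At an unadjusted p under 0.05 there were again 0 of the 6 and 713 of all tested genes. limma-voom also called 0 of the 6, and DESeq2 called none but gave no adjusted p for D2hgdh and Idh1. Phgdh differed by −0.29 (log2, D-2HG over L-2HG, 95% interval −0.70 to 0.12, edgeR adjusted p = 0.828), Mdh1 by −0.16 (−0.68 to 0.36, 0.953) and Mdh2 by 0.074 (−0.40 to 0.54, 0.975). These intervals bound how far apart the compounds could be and do not show that they act alike.

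Idh2 differed by −0.29 (95% interval −0.77 to 0.20, edgeR adjusted p = 0.867), and it was the 1 gene of the 6 whose D-2HG libraries all lay below all L-2HG libraries, as 8.13% of tested genes did. For D2hgdh the difference was −0.57 (95% interval −1.81 to 0.67, edgeR adjusted p = 0.913) and for Idh1 −0.11 (−1.58 to 1.35, 0.991). The median over the 6 genes was −0.22, beside 0.0075 over all tested genes. The comparisons of both compounds with control share the same 3 control libraries, so their values side by side are not independent of each other.

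Neighbouring reactions were read from 35 genes in 8 lists, of which 31 passed the filter on low counts. With D-2HG, 2 of the 31 were higher and 5 lower than in control cells, beside 11.8% and 10.5% of all tested genes. With L-2HG, 2 were higher and 4 lower, beside 9.41% and 8.30%. The median log2 fold change over the 31 genes was −0.29 with D-2HG and −0.37 with L-2HG. Between D-2HG and L-2HG edgeR called 0 of the 31. When the satellite share was a covariate, none of the calls against control named below passed, and each of them was also lost without control replicate 1 and without control replicate 3. Each passed without control replicate 2, and the calls were lost in 4 (Idh3g with L-2HG) to 15 (Aco1 with D-2HG and Ogdh with L-2HG) of the 20 or fewer alternatives run for each.

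Of the lactate dehydrogenases, whose side reaction gives L-2HG, Ldha averaged 2524 ± 305 CPM with D-2HG, 3127 ± 650.4 CPM with L-2HG and 4641 ± 1127 CPM in control cells. It fell with D-2HG (log2 fold change −0.88, edgeR adjusted p = 0.0146) and did not pass with L-2HG (−0.57, 0.0801), where it passed in 5 of 20 alternatives, among them without control replicate 2 (−0.76, 0.00833) and in DESeq2's Wald test (0.0170). Ldhb averaged 6.31 ± 1.69 CPM with D-2HG, 6.09 ± 1.93 CPM with L-2HG and 9.63 ± 4.25 CPM in control cells and passed in neither comparison. Adhfe1, whose product makes D-2HG from 2-oxoglutarate while oxidising 4-hydroxybutyrate, and Ldhc, the testis form of lactate dehydrogenase, were below the filter. Adhfe1 had 22 counts with D-2HG, 19 with L-2HG and 9 in control cells, and was not tested. Its D-2HG libraries (1.72, 2.74 and 2.26 CPM) lay above the controls (0, 0.485 and 1.45 CPM), and the L-2HG range overlapped that of control cells. Ldhc had no count with D-2HG, 10 counts with L-2HG and 5 in control cells.

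D2hgdh passes its electrons to the electron transfer flavoprotein, whose subunits are encoded by Etfa and Etfb. Etfb averaged 12.7 ± 0.853 CPM with D-2HG, 15.2 ± 4.08 CPM with L-2HG and 21.5 ± 4.62 CPM in control cells, with log2 fold changes of −0.78 with D-2HG (edgeR adjusted p = 0.0439) and −0.63 with L-2HG (edgeR adjusted p = 0.125). Etfa averaged 82.4 ± 5.34 CPM with D-2HG, 76.0 ± 6.60 CPM with L-2HG and 122 ± 30.3 CPM in control cells, with log2 fold changes of −0.57 with D-2HG (edgeR adjusted p = 0.0527) and −0.67 with L-2HG (edgeR adjusted p = 0.0397). The treated libraries of Etfa all lay below the controls, and neither gene passed between the compounds (edgeR adjusted p = 0.966 for each). The passing calls, Etfb with D-2HG and Etfa with L-2HG, were lost in 12 of 19 and 12 of 20 alternatives. The remaining gene of this list, Etfdh, passed in neither comparison.

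Idh3g, a subunit gene of the NAD-dependent isocitrate dehydrogenase, averaged 138 ± 24.0 CPM with D-2HG, 117 ± 45.2 CPM with L-2HG and 247 ± 54.1 CPM in control cells. It fell with D-2HG (log2 fold change −0.84, edgeR adjusted p = 0.0225) and with L-2HG (−1.03, 0.0152), whereas Idh3a and Idh3b passed in neither. Aco1, the cytosolic aconitase that also binds iron-responsive RNA elements, had 45.1, 45.7 and 49.7 CPM with D-2HG, 50.8, 59.2 and 63.7 CPM with L-2HG, and 16.3, 45.6 and 19.0 CPM in control cells. It rose by 0.86 (log2) with D-2HG (edgeR adjusted p = 0.0427) and by 1.16 with L-2HG (edgeR adjusted p = 0.0201), although control replicate 2 was at the level of the D-2HG libraries, and without that library the changes were 1.38 and 1.67. The Aco1 call was lost in 15 of 20 alternatives with D-2HG, DESeq2's Wald test (adjusted p = 0.0692) and library totals (0.0609) among them, and in 6 of 20 with L-2HG. Ogdh, which encodes the first subunit of the 2-oxoglutarate dehydrogenase complex, averaged 259.6 ± 25.5 CPM with D-2HG, 253 ± 18.2 CPM with L-2HG and 162 ± 52.8 CPM in control cells, and rose by 0.69 (log2) with D-2HG (edgeR adjusted p = 0.0285) and by 0.65 with L-2HG (edgeR adjusted p = 0.0452). Without control replicate 2 its changes were 0.96 with D-2HG and 0.90 with L-2HG. The Ogdh call was lost in 7 of 20 alternatives with D-2HG and in 15 of 20 with L-2HG, where DESeq2's Wald test gave an adjusted p of 0.0574 and every library left out except control replicate 2 ended it.

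Downstream of Phgdh in serine metabolism, Psat1, the next enzyme of serine synthesis, averaged 269 ± 22.4 CPM with D-2HG, 298 ± 11.8 CPM with L-2HG and 404 ± 50.5 CPM in control cells. Psat1 fell with D-2HG (log2 fold change −0.59, edgeR adjusted p = 0.0282). It did not pass with L-2HG (−0.44, edgeR adjusted p = 0.0889), where all libraries also lay below the controls. Shmt2, the mitochondrial enzyme that turns serine into glycine, averaged 623 ± 65.6 CPM with D-2HG, 561 ± 129 CPM with L-2HG and 989 ± 195 CPM in control cells. It fell with D-2HG (−0.67, edgeR adjusted p = 0.0321) and with L-2HG (−0.81, edgeR adjusted p = 0.0202). Dld, a subunit gene shared by several 2-oxoacid dehydrogenase complexes, averaged 136 ± 21.7 CPM with D-2HG, 109.6 ± 7.89 CPM with L-2HG and 171 ± 11.3 CPM in control cells. Dld fell with L-2HG (−0.63, edgeR adjusted p = 0.0344). It did not pass with D-2HG (−0.33, edgeR adjusted p = 0.201), where all libraries also lay below the controls. The malate-aspartate shuttle list left out Mdh1 and Mdh2, described above, and none of its 5 genes passed against control in edgeR's test. The list of NADPH-forming genes left out Idh1 and Idh2, and none of its 4 tested genes passed.

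**Figure D5:**
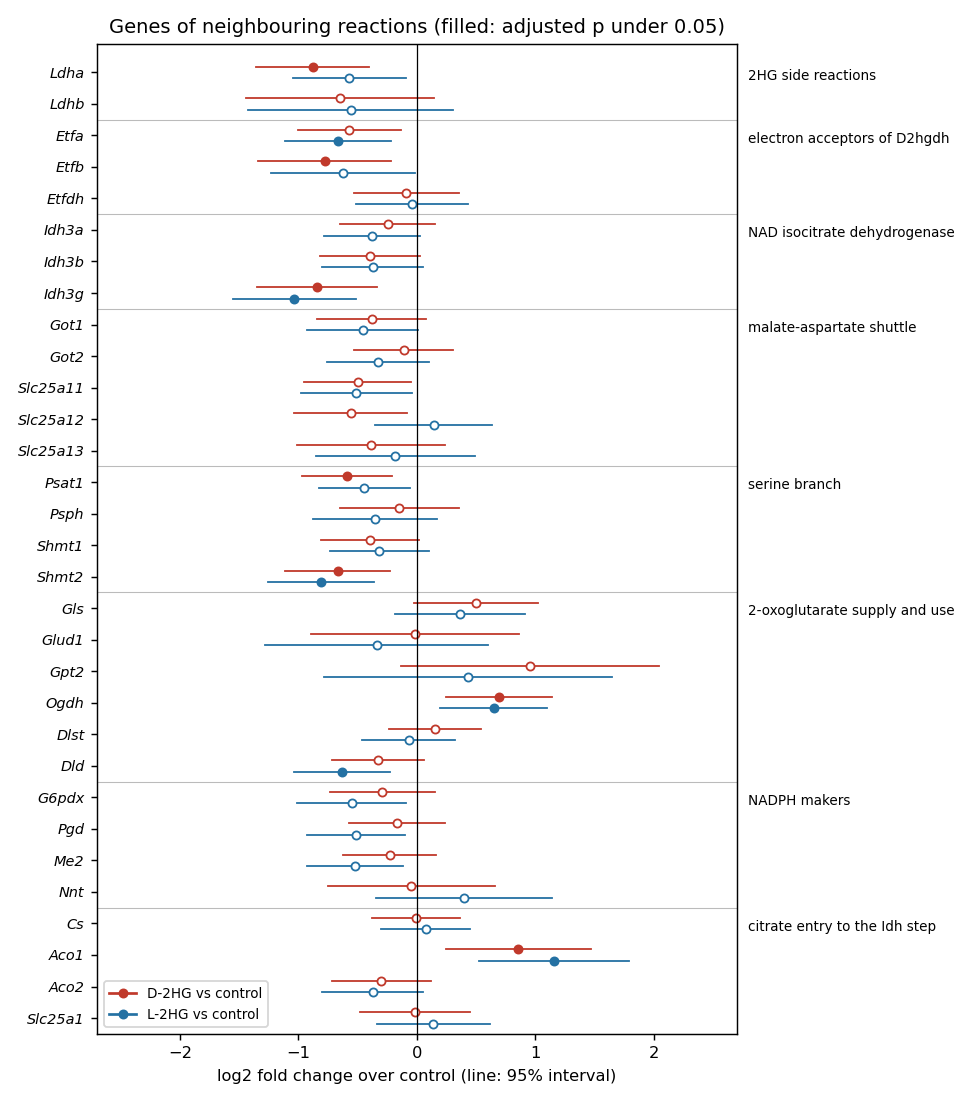
Log2 fold change over control (horizontal axis, points with 95% intervals) of the 31 tested genes of neighbouring reactions, grouped by list, for D-2HG (upper line of each pair) and L-2HG (lower line), with filled points for adjusted p under 0.05. The filled points of Aco1 and Ogdh lie to the right of 0, and all other filled points lie to the left.

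Across the 9 libraries, the genes whose levels were most like those of an abundant member were found by the root mean square difference of centred log2 CPM among 5964 genes with a mean of at least 20 CPM. The closest were Gemin6 (0.0341) and Nubp2 (0.0656) for Mdh2, Tagln2 (0.0654) and Tapbp (0.0818) for Phgdh, Eef1akmt1 (0.0801) and Pop5 (0.0831) for Mdh1, and Inpp5k (0.125) and Ypel5 (0.135) for Idh2. The median difference to all other genes was 0.484 for Mdh2, 0.485 for Phgdh, 0.521 for Mdh1 and 0.414 for Idh2. Between members, Mdh1 and Mdh2 differed by 0.125, Mdh1 and Phgdh by 0.189, and Mdh2 and Phgdh by 0.190. The profiles share the same libraries and their depth, and these values describe these libraries only.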

How the data were processed

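RNA of CD8 T cells was captured on beads, primed with oligo(dT), amplified by a limited PCR and made into libraries with a transposase, per the labels' protocols. The deposited table holds raw read counts for each gene symbol and library, and the submitters' processing notes name STAR 2.7.3a, featureCounts and genome build mm10, with the settings for strand and shared reads not given in the sources used here. A second deposited table gives signal values, the same counts over a size factor for each library, and was left out of the tests.

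The 6 genes and all lists were chosen with earlier results of these data known. The counts were fitted with edgeR 4.0.16 in R 4.3.3: 10235 of 55011 genes passed filterByExpr (minimum count 10), and 11256 had no count. After TMM scaling, all 9 libraries entered 1 robust quasi-likelihood model with a mean for each group, which left 6 residual degrees of freedom. For each comparison, p-values were adjusted by Benjamini-Hochberg over all tested genes. Intervals are 95% intervals of that fit and cover 1 gene at a time. The biological coefficient of variation was 0.210, and replicates differed beyond counting error (chi-square per degree of freedom 5.26 to 34.6). Exon lengths and positions came from GENCODE M21, where 2181 of the symbols had no single entry, near copies from BLAST 2.17.0 and sequences before transcription starts from RefSeq, where all 6 genes matched. The model was tested on simulated data. Of the neighbouring genes, those past the threshold are named, plus Adhfe1, Ldha and Ldhb in any case. Results for 1 further gene of these lists are not reported here. Similar genes are the 2 closest to each of the 6 with a mean of at least 20 CPM, without predicted genes. Other names (Ldhc, Etfdh, Idh3a, Idh3b, Wdpcp, Gm10800, Gm10801 and cell markers) were given where a count turns on them. Alternatives were DESeq2 1.42.0, limma 3.58.1 voom with quality weights, other scalings and filters, a model of 2 groups at a time, a replicate block, thinning of all libraries to the smallest total, a subtracted background and leaving out each library, and, chosen after seeing the data, the log2 satellite share as a covariate.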

Additional observations from a re-analysis of the deposited data

How the results depend on the processing

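Genes called with D-2HG against control numbered 2278, and 1341 without a count filter, 5615 with limma-voom, 690 after thinning to the smallest library, 96 with the satellite covariate and 384 to 4257 with a library left out. With L-2HG they numbered 1812, and 1195 at a mean count of at least 50, 5169 with limma-voom, 427 in a fit of only the 2 groups, 675 after thinning, 723 with the background subtracted, 8 with the satellite covariate and 65 to 4108 with a library left out. Between D-2HG and L-2HG they numbered 31, and 49 with DESeq2, 158 with limma-voom, 13 after thinning, 76 with the satellite covariate and 10 to 60 with a library left out.

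Of the 6 enzyme genes, 3 passed with D-2HG, 0 with the satellite covariate and 1 to 3 with a library left out. With L-2HG 2 passed, 3 (with Mdh1) with DESeq2 size factors, without a count filter, with DESeq2's Wald test and with limma-voom, 2 at a mean count of at least 50, 1 with library totals, 0 in a fit of only the 2 groups, 1 after thinning, 0 with the background subtracted, 0 with the satellite covariate and 0 to 3 with a library left out. The cause was not tested. DESeq2 size factors shifted the median of all genes with L-2HG by −0.12, and relative to that median Mdh1 was at −0.76, −0.77 and −0.75 with TMM, DESeq2 size factors and library totals.

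Directions turned in the following cases. With L-2HG against control, D2hgdh was at 0.11 with limma-voom and −0.56 to 0.070 with a library left out, Idh1 at 0.041 with library totals and −1.35 to 0.49 with a library left out, Idh2 at 0.17 after thinning, and Mdh1 at 0.033 with the satellite covariate. With D-2HG against control, Idh1 was at 0.27 with limma-voom and −0.67 to 0.17 with a library left out. Between D-2HG and L-2HG, Idh1 was at 0.024 without a count filter, 0.67 with limma-voom, 0.14 with the background subtracted and −0.68 to 1.17 with a library left out, and Mdh2 at −0.039 with the satellite covariate. With a library left out, the same difference ran from −0.32 to 0.11 for Mdh1 and −0.036 to 0.26 for Mdh2. The log2 ratio of Mdh2 to Mdh1 between L-2HG and control cells ran from −0.18 to 0.0027.

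With the replicate number as a block, 2314 genes were called with D-2HG, 2284 with L-2HG and 35 between the compounds, and 3, 3 and 0 of the 6 enzyme genes. Correlations of the deviations from group means ran from −0.17 to 0.28 between same-numbered libraries and from −0.30 to 0.28 between differently numbered ones. With 3 libraries in each group these values cannot tell whether the numbers pair the libraries.

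Depth limits D2hgdh (97 counts) and Idh1 (78 counts) most.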
